A study of Mus musculus with 12 samples.

Results

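Transcript levels of 10 genes of bone morphogenetic protein (BMP) signalling were followed in cultured mouse oligodendrocyte precursor cells (OPCs) that had been left untreated or exposed to a glucocorticoid or to the cytokine IFN-γ. The genes were listed by name and comprise the ligand Bmp4, the receptors Bmpr1a, Bmpr1b and Bmpr2, the inhibitory SMADs Smad6 and Smad7, and the Id genes Id1, Id2, Id3 and Id4. They are 10 of 55536 genes with transcripts in the deposited tables, and 9 of them had enough reads to be tested, among 17919 genes tested in all. Smad6 was the exception.

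OPCs are the dividing cells from which myelinating oligodendrocytes arise. Pups aged P4 to P6, of both sexes, supplied the cells, several brains per culture. They came from a cross of Sox10:Cre with RCE:loxP (EGFP) mice on a mixed C57BL/6 and CD1 background, in which Cre driven by the Sox10 gene switches on green fluorescence in the oligodendrocyte lineage. Cells were isolated by that fluorescence or with magnetic beads against CD140a, the PDGF receptor α, and expanded in medium with 10 ng/ml PDGFaa and 20 ng/ml bFGF, which all groups received. Untreated cultures (Ctr-OPCs) were compared with cultures given 1 µM dexamethasone (Dexa-treated OPCs) or 100 ng/ml IFN-γ (IFN-γ-treated OPCs) for 48 h, with 4 replicates per group from different litters, so that replicate numbers are called litters here. The titles of litters 3 and 4 begin alike, for a reason the labels do not give. Which of the isolation methods served which replicate is not given in the labels, and all samples also carry the label of the autoimmune model EAE, which their protocol does not mention.

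BMP ligands bind a pair of type I and type II receptor kinases, which phosphorylate SMAD1, SMAD5 and SMAD9. These join SMAD4, enter the nucleus and switch on target genes, among them the Id genes and the inhibitory SMADs that damp the pathway. Id proteins lack a DNA-binding domain and bind E proteins and other basic helix-loop-helix factors. In OPCs, BMP signalling and Id proteins are known to hold back differentiation into oligodendrocytes and to favour astrocyte features, while Bmp4 itself is a known transcript of cells that are committing to the oligodendrocyte fate.

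Reads assigned to genes numbered 19209063 to 52074652 in 11 complete libraries. Only 33.7% of the transcripts are in the table of the third Dexa library, which was kept out of the fits over all genes. That table holds all transcripts of 5 of the 10 genes: Bmp4, Bmpr1a, Bmpr2, Id2 and Id4. The 8 OPC markers summed to 5568.5 to 13113.4 CPM (read counts scaled to library size) in Ctr-OPCs and to 3968.0 to 9020.3 CPM in IFN-γ-treated OPCs. These sums include Gpr17, a receptor of committed precursors, at 448 to 4828 CPM in Ctr-OPCs and 63.9 to 1300 CPM in IFN-γ-treated OPCs. All 10 microglia markers stayed under 1 CPM in every library. Astrocyte markers were present in all groups, with sums of 570.1 to 1525.0 CPM in Ctr-OPCs, 1175.6 to 1974.0 CPM in Dexa-treated OPCs and 1062.3 to 1589.2 CPM in IFN-γ-treated OPCs. The lowest Ctr sum was that of litter 3, which has no complete Dexa library, so the Ctr and Dexa ranges cover unlike litters. In these bulk libraries, fewer cells of a type and less RNA per cell cannot be told apart.

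Per transcript length, Id2, Id3 and Bmpr1a were the most abundant of the 10 genes in Ctr-OPCs. Id2 stood at 35.0 ± 7.87 TPM (a level per transcript length, SD, n = 4), Id3 at 28.3 ± 12.2 TPM and Bmpr1a at 21.3 ± 3.16 TPM. Id1 followed at 6.14 ± 3.56 TPM, Bmpr2 at 5.14 ± 0.740 TPM and Bmp4 at 4.83 ± 5.25 TPM. Bmpr1b at 2.28 ± 1.55 TPM, Smad7 at 0.908 ± 0.246 TPM and Id4 at 0.749 ± 0.284 TPM were low, and Smad6 at 0.0216 ± 0.0163 TPM was close to the detection floor. Between neighbours in this order, the ranges over the 4 libraries were apart only for Bmpr1a above Id1 and for Id4 above Smad6. Bmp4 had the widest relative spread of the tested genes, from 0.0664 to 11.9 TPM among Ctr-OPCs.

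IFN-γ changed 2 of the 9 tested genes at an adjusted p under 0.05, one in each direction: Bmp4 fell and Bmpr1a rose. All 4 Id genes, Bmpr1b, Bmpr2 and Smad7 missed the threshold. Of all genes tested, 31.2% passed in the same comparison, 15.9% higher and 15.3% lower, and 2 of 9 lies below that share. The median log2 fold change of the 9 genes was -0.05, beside -0.01 over all genes tested. Dexamethasone changed 0 of the 9, where 1.7% of all genes passed. At an unadjusted p under 0.05 the count was also 0, and it was 0 in DESeq2 with the replicate block.

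**Figure D1:**
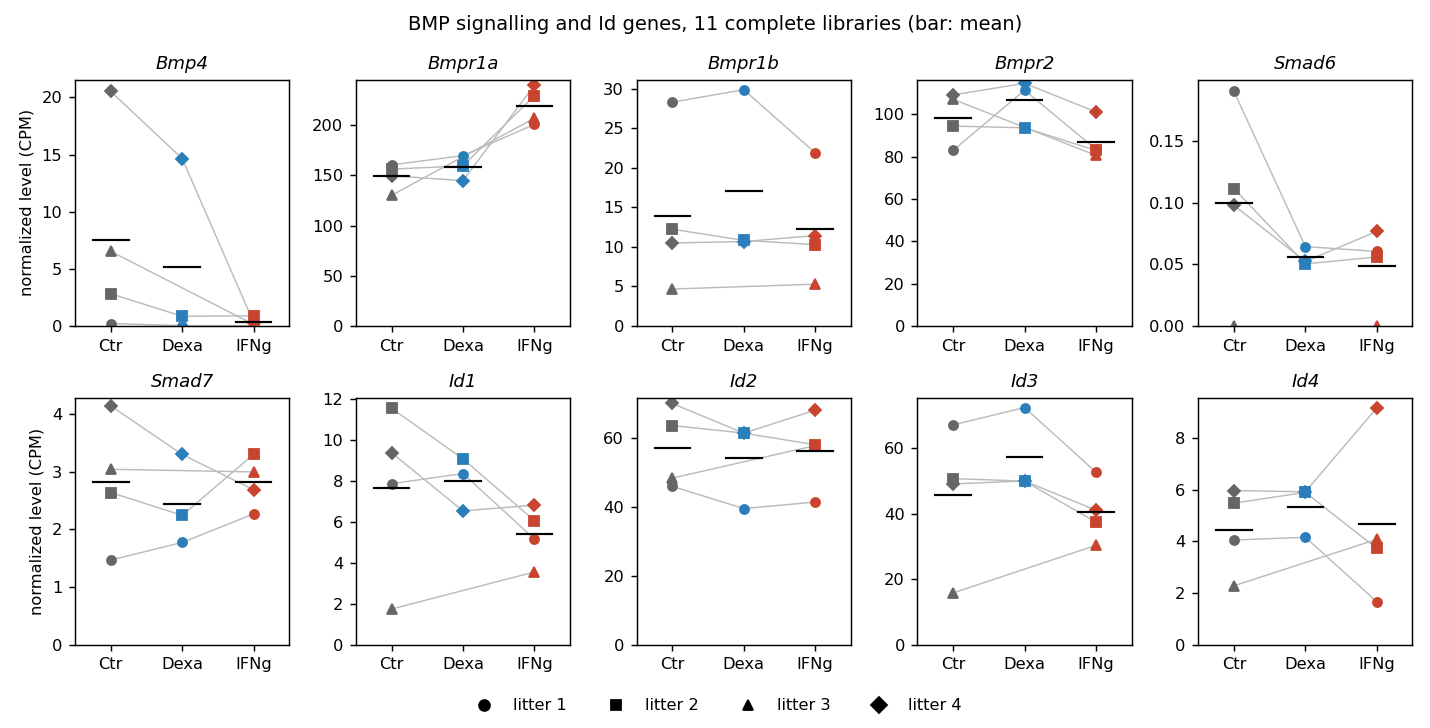
Normalized levels (CPM, linear axes from 0) of the 10 genes in the 11 complete libraries, with a symbol for each litter, grey lines joining libraries of a litter and a black bar at each group mean. Bmpr1a in IFN-γ-treated OPCs, at 201 to 240 CPM, lies above every other library, and litter 3 sits lowest among Ctr-OPCs for Id1 and Id3.

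Bmp4, the ligand, lies on chr14:46383520-46390669 (GRCm38, minus strand). Its level differed widely between litters before any treatment. Ctr-OPCs of litters 1 to 4 held 0.217, 2.82, 6.53 and 20.5 CPM, from 8, 152, 316 and 630 reads. IFN-γ-treated OPCs of the same litters held 0.0302, 0.895, 0.139 and 0.307 CPM, from 1, 32, 4 and 8 reads. Every IFN-γ library lay below the Ctr library of its litter, as was so for 22.8% of all genes tested, while the groups overlapped because IFN-γ litter 2 stood above Ctr litter 1. Bmp4 fell by 3.91 ± 0.95 on the log2 scale (SE, 95% interval -6.25 to -1.58), which is 15.1-fold, with an adjusted p of 0.0254 in edgeR's quasi-likelihood test with the litter as a block.

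Within litters the size of the fall ranged from 3.15-fold in litter 2 (exact 95% interval 2.14 to 4.77, counting error only) to 66.9-fold in litter 4 (33.8 to 156). In litter 3 it was 46.9-fold (18.1 to 173). Litter 1 held too few Bmp4 reads to show a difference by itself, with a ratio of 7.19 and an interval of 0.964 to 319. Its libraries were not shallow, at 37066224 reads in genes for Ctr and 34353769 for IFN-γ. The call was sensitive to single libraries. It was missed when any 1 of the 4 Ctr libraries was left out (adjusted p of 0.054, 0.058, 0.0652 and 0.0793 without Ctr litters 1, 2, 3 and 4) or without IFN-γ litter 3 (0.0694). As litter 3 has no complete Dexa library, leaving out its Ctr or its IFN-γ library is the same check. Without IFN-γ litter 4 the call was also missed, and the fall shrank to a log2 fold change of -2.76 (0.0543). Without IFN-γ litter 2 the log2 fold change was -5.90, with an adjusted p of 2.75e-05. Without the block edgeR gave an adjusted p of 0.151 and with no filter on low counts 0.0565, and the range over all alternatives was 2.75e-05 to 0.151.

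In Dexa-treated OPCs Bmp4 stood at 0.0322, 0.856 and 14.6 CPM in litters 1, 2 and 4, each below its Ctr library, as for 22.8% of all genes tested. The log2 fold change of -0.99 (95% interval -3.05 to 1.07) did not pass, with an adjusted p of 0.759 in edgeR. It ranged from -0.29 without Dexa litter 2 to -2.57 without Dexa litter 4 (adjusted p of 0.973 and 0.564). In a fit of the Ctr and Dexa libraries alone, the adjusted p was 0.0443, where 10.9% of the genes then tested passed, beside 1.7% in the main fit. Dexa litter 3 held 91 Bmp4 reads. On a scale over the genes that this library lists whole, litter 3 read 16.4 CPM in Ctr-OPCs, 13.8 in Dexa-treated OPCs and 0.355 in IFN-γ-treated OPCs. IFN-γ-treated and Dexa-treated OPCs differed in Bmp4 by -2.92 on the log2 scale, with an adjusted p of 0.0907 over 11 libraries and 0.0322 once this library was added, where 38.4% of the genes then tested passed. Over the 11 libraries this difference was -4.90 without IFN-γ litter 2 (adjusted p of 0.000171), -1.58 without IFN-γ litter 4 (0.28) and -1.39 without Dexa litter 4 (0.519).

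Of the 6 tested markers of differentiating or mature oligodendrocytes, 3 ranked the Ctr litters as Bmp4 did (Myrf, Bcas1 and Enpp6) and 3 did not (Mbp, Mag and Mog). Myrf, Bcas1 and Enpp6 were lower after IFN-γ in every litter. Mbp, which encodes myelin basic protein, read 14.6, 55.8, 37.1 and 51.8 CPM in Ctr litters 1 to 4 and was higher after IFN-γ in litter 2, at 66.6 CPM, and lower in the other three. Mag was higher after IFN-γ in litters 1 and 2 and Mog, under 1 CPM in every library, in litters 2, 3 and 4. Enpp6, a phosphodiesterase of newly formed oligodendrocytes, read 0.841, 5.75, 23.8 and 64.4 CPM in Ctr litters 1 to 4 and 0.725, 4.22, 1.01 and 0.728 CPM after IFN-γ, a log2 fold change of -2.83 that did not pass (adjusted p of 0.147 in edgeR). Myrf, the transcription factor that drives myelin genes, read 3.80, 14.6, 32.5 and 47.3 CPM in Ctr-OPCs and fell by 1.76 ± 0.31. Bcas1 fell by 1.03 ± 0.16. Of the 7 listed markers of differentiating or mature oligodendrocytes, 6 were tested, 2 fell (Myrf and Bcas1) and 0 rose at the adjusted threshold, beside 15.3% of all genes lower and 15.9% higher. Of the 8 OPC markers, 5 fell and 0 rose, beside the same shares, with Gpr17, a receptor of committed precursors, down by 2.09 ± 0.18 and Pdgfra, the receptor that the beads bind, down by 0.61 ± 0.16 after IFN-γ (SE). The list of differentiating or mature markers summed to 140.0 to 1429.8 CPM in Ctr-OPCs and 97.3 to 440.9 CPM in IFN-γ-treated OPCs. Most of each sum was Bcas1, at 119 to 1261 CPM in Ctr-OPCs and 80.9 to 415 CPM in IFN-γ-treated OPCs. The part of these differences in the level of Bmp4 was not tested.

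**Figure D2:**
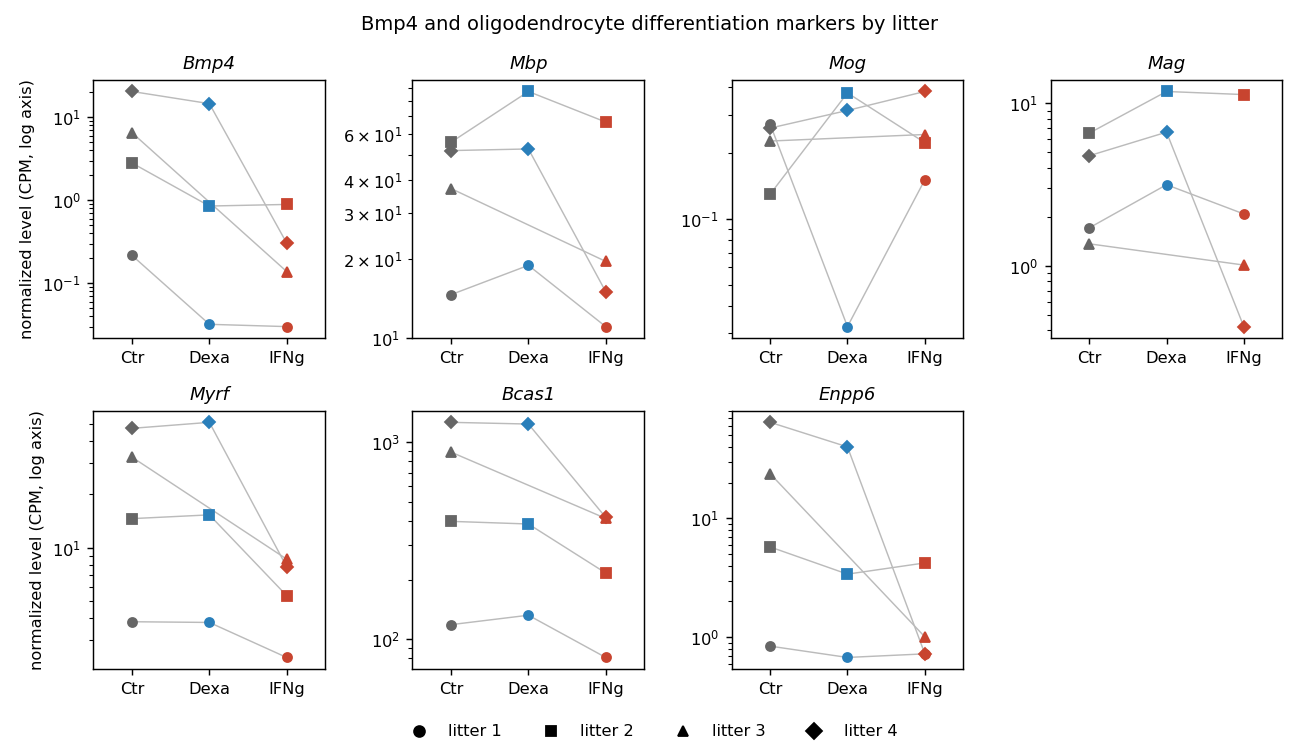
Normalized levels (CPM, log axes) of Bmp4 and of the 6 tested markers of differentiating or mature oligodendrocytes in Ctr-OPCs, Dexa-treated OPCs and IFN-γ-treated OPCs, with a symbol for each litter and lines joining libraries of a litter. In Ctr-OPCs Bmp4, Myrf, Bcas1 and Enpp6 rank litters 1, 2, 3 and 4 from low to high and Mbp, Mag and Mog do not, and Mbp and Mag are higher after IFN-γ in litter 2.

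The bases before the start of Bmp4 are shown because Bmp4 is the gene with the largest change of the 10, and those of Id4 because this window holds a GC element of the kind found in BMP-responsive genes. Both come from RefSeq on GRCm38.p6, cover 250 bases up to the transcription start (chr14:46390670-46390919, minus strand, and chr13:48260866-48261115, plus strand) and overlap no annotated exon. Capitals mark the E-box CANNTG, which basic helix-loop-helix factors bind and which occurs 3 times for Bmp4, and the GC element GGCGCC, which occurs 1 time for Id4.
Bmp4: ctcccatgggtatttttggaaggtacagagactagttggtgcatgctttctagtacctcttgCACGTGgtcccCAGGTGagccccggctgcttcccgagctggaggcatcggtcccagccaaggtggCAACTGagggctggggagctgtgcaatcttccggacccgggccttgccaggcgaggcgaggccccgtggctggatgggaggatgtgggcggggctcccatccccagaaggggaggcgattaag
Id4: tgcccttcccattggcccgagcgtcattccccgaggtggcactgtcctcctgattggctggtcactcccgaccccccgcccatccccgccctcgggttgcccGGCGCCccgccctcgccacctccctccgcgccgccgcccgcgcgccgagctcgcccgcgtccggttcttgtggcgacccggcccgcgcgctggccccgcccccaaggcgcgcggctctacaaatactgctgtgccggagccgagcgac

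Among 32851 promoter windows of this length, 66.2% hold CANNTG and 9.59% hold GGCGCC, read on both strands. These shares are not matched for base content. The Bmp4 and Id4 windows are 63.2% and 75.6% G or C, beside 53.2% on average over all windows. Neither the Bmp4 nor the Id4 window holds the interferon-γ activated site TTCNNNGAA (7.02% of all windows), the core GAAANNGAA of interferon-stimulated elements (7.13%), the repeat unit TGTTCT of glucocorticoid response elements (16.1%) or the SMAD box GTCTG (42.2%). RefSeq windows of 8 of the 10 genes were searched, without Id1 and Smad7. The GC element also occurred 1 time each before Bmpr1a, Bmpr2 and Id2. A match in letters is a description of the window and not a binding site.

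Bmpr1a, a type I receptor that binds BMP2 and BMP4, lies on chr14:34410734-34503341 (minus strand). Ctr-OPCs of litters 1 to 4 held 160, 156, 130 and 150 CPM. IFN-γ-treated OPCs held 201, 229, 207 and 240 CPM. The groups did not overlap, as was so in this direction for 8.94% of all genes tested, and IFN-γ was higher in 4 of 4 litters, as for 22.1%. Bmpr1a rose by 0.56 ± 0.07 on the log2 scale (95% interval 0.40 to 0.71), with an adjusted p of 9.2e-05 in edgeR. It passed in all 20 alternatives run, with log2 fold changes of 0.49 to 0.65 and adjusted p-values of 1.61e-09 to 0.00314. Dexa-treated OPCs, at 170, 159 and 145 CPM in litters 1, 2 and 4, overlapped with Ctr-OPCs (log2 fold change 0.04, 95% interval -0.13 to 0.21). Against Dexa-treated OPCs IFN-γ-treated OPCs were higher by 0.52 ± 0.08 (adjusted p of 0.000413).

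Bmpr1b, the other type I receptor of the set, on chr3:141837136-142169425, differed more between litters than between treatments. Ctr-OPCs held 28.3, 12.2, 4.67 and 10.5 CPM in litters 1 to 4, and IFN-γ-treated OPCs held 21.9, 10.3, 5.29 and 11.4 CPM. Litter 1 was the highest and litter 3 the lowest under both conditions. The log2 fold change was -0.10 (95% interval -0.34 to 0.13) for IFN-γ and 0.02 (-0.24 to 0.27) for dexamethasone, and neither passed.

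Bmpr2, the type II receptor, on chr1:59763400-59879014, kept to a narrow range of 80.7 to 115 CPM in all libraries. It was lower in IFN-γ-treated OPCs, at 87.1 ± 9.48 CPM (SD, n = 4), than in Dexa-treated OPCs, at 107 ± 11.3 CPM (n = 3), by 0.30 ± 0.09 on the log2 scale with an adjusted p of 0.0186 in edgeR, beside 33.9% of all genes tested that passed. The log2 fold change against Ctr-OPCs (98.5 ± 12.2 CPM) was -0.18 for IFN-γ and 0.12 for dexamethasone, and neither passed (adjusted p of 0.105 and 0.68). The difference between the treatments missed the threshold without Dexa litter 1 (adjusted p of 0.117), with transcript length offsets (0.074) and without the block (0.195). IFN-γ against Ctr passed in 2 of 20 alternatives, without Ctr litter 1 (log2 fold change -0.27, adjusted p of 0.0149) and with no filter on low counts (-0.21, 0.0337).

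Smad6 and Smad7 block the receptors and are themselves induced by BMP signals. Smad6, on chr9:63953076-64022059, had 0 to 7 reads in every complete library: 7, 6, 0 and 3 in Ctr-OPCs, 2, 2, 0 and 2 in IFN-γ-treated OPCs, and 2, 2 and 1 in Dexa-treated OPCs. No difference was detectable at this depth. Smad7, on chromosome 18, read 1.47, 2.64, 3.04 and 4.14 CPM in Ctr-OPCs and 2.26, 3.30, 2.99 and 2.68 CPM in IFN-γ-treated OPCs, and the groups overlapped. Its log2 fold change was 0.07 (95% interval -0.34 to 0.48) for IFN-γ and -0.15 (-0.63 to 0.32) for dexamethasone.

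**Figure D3:**
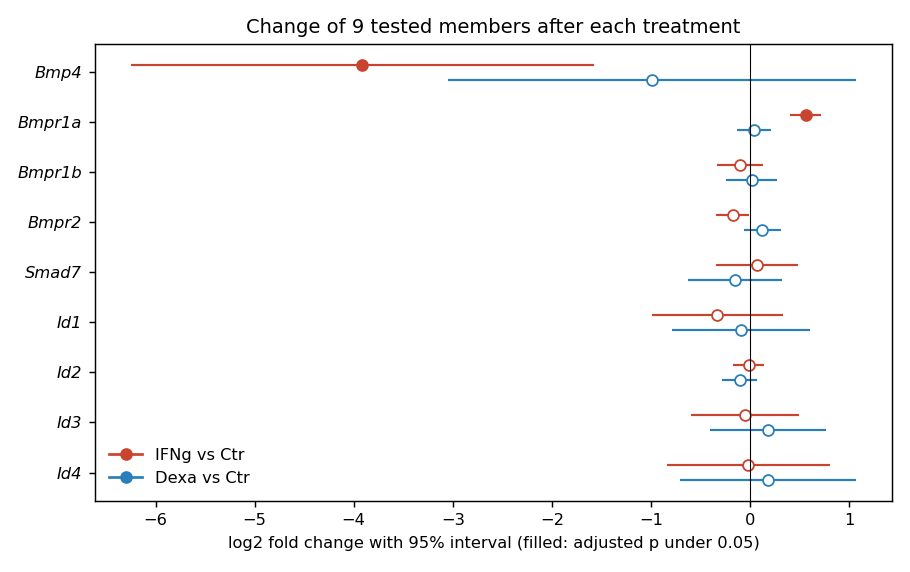
Log2 fold changes of the 9 tested genes against Ctr-OPCs, with 95% intervals from edgeR's fit over 11 libraries, red for IFN-γ and blue for dexamethasone. The filled points mark Bmp4 and Bmpr1a after IFN-γ, and the interval of Bmp4 is by far the widest.

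The Id genes are direct targets of BMP SMADs in many cells. None of the 4 passed in any of the 3 comparisons over 11 libraries, also at an unadjusted p under 0.05. DESeq2 with the block also called 0. Id1 and Id3 were lower after IFN-γ in litters 1, 2 and 4 and higher in litter 3. Id1, on chr2:152736251-152737410, read 7.87, 11.6, 1.74 and 9.38 CPM in Ctr litters 1 to 4 and 5.16, 6.07, 3.55 and 6.82 CPM after IFN-γ. Ctr litter 3 was the lowest of all 11 libraries. The log2 fold change was -0.33 (95% interval -0.99 to 0.33), with an adjusted p of 0.428 in edgeR. Without Ctr litter 3 it was -0.69 with an adjusted p of 0.00868, and without IFN-γ litter 3 it was -0.68 with an adjusted p of 0.00951.

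Id3, on chr4:136143497-136145755, was likewise lowest in litter 3 under both conditions. Ctr litters 1 to 4 read 67.1, 50.7, 15.8 and 49.1 CPM, and the IFN-γ libraries read 52.7, 37.4, 30.3 and 41.0 CPM. Within litters the log2 ratio was -0.35, -0.44 and -0.26 in litters 1, 2 and 4 and 0.94 in litter 3, each beyond its counting interval. The log2 fold change over all litters was -0.05 (95% interval -0.59 to 0.49, adjusted p of 0.901). It was -0.36 without Ctr litter 3 (adjusted p of 0.00181) and -0.36 without IFN-γ litter 3 (0.0021). Against Dexa-treated OPCs, at 72.4, 49.93 and 49.96 CPM, Id3 differed by -0.23 (adjusted p of 0.544), and by -0.40 without Ctr litter 3 (0.000887). In a fit of these groups alone the adjusted p was 0.00917, where 24.4% of the genes then tested passed. For Id1 and Id3, leaving out litter 3 of either group thus turned a missed threshold into a call. Litter 3 has no complete Dexa library, so either omission removes its only comparison within the litter. These settings are therefore the same check.

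Ctr litter 3 was also the lowest Ctr library for the astrocyte markers Gfap, Aqp4, Aldh1l1, Slc1a2, Slc1a3, Gja1 and Aldoc. S100b went the other way, at 59.8 CPM in Ctr litter 3, above litters 1 and 2 at 9.23 and 31.4 CPM. The water channel Aqp4 read 43.0, 22.7, 5.62 and 19.7 CPM in Ctr litters 1 to 4 and Aldh1l1, a folate enzyme, read 103, 81.5, 20.7 and 26.6 CPM. After IFN-γ, Aqp4 fell by 0.84 ± 0.21 while Aldh1l1 rose by 0.76 ± 0.19, Aldoc by 0.88 ± 0.18 and the intermediate filament gene Gfap by 3.99 ± 0.40. Of the 8 astrocyte markers, 3 rose, 3 fell and 2 did not pass, beside 15.9% higher and 15.3% lower over all genes. The part of these cells or of this library in the values of Id1 and Id3 was not tested.

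Id2, on chr12:25093799-25097140, was the most even of the Id genes. Ctr-OPCs read 46.0, 63.6, 48.4 and 70.0 CPM and IFN-γ-treated OPCs read 41.4, 58.0, 57.8 and 68.1 CPM. The 95% interval of the log2 fold change was -0.17 to 0.14 for IFN-γ and -0.28 to 0.07 for dexamethasone, around -0.02 and -0.11. Id4, on chr13:48261228-48266026, read 4.04, 5.48, 2.27 and 5.96 CPM in Ctr-OPCs and 1.66, 3.72, 4.07 and 9.16 CPM after IFN-γ. It was lower after IFN-γ in litters 1 and 2 and higher in litters 3 and 4, with log2 ratios of -1.28, -0.56, 0.84 and 0.62. The log2 fold change of -0.02 thus had a wide interval of -0.84 to 0.80.

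**Figure D4:**
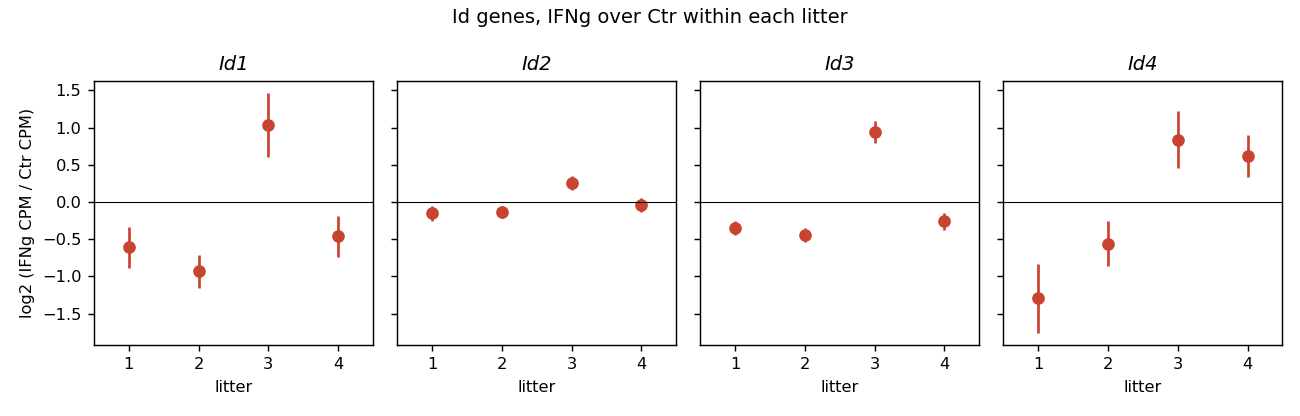
Log2 ratio of CPM in IFN-γ-treated over Ctr-OPCs for Id1, Id2, Id3 and Id4 in each litter, with exact 95% intervals for counting error. Id1 and Id3 lie below 0 in litters 1, 2 and 4 and above 0 in litter 3, and Id4 lies below 0 in litters 1 and 2 and above in litters 3 and 4.

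Beyond the 10 genes, 89 further genes of the pathway were listed, of which 63 had enough reads. Changes are given on the log2 scale ± SE and levels as mean ± SD over 4 Ctr, 3 Dexa or 4 IFN-γ libraries. After IFN-γ 10 of the 63 rose and 16 fell, with a median log2 fold change of -0.09, beside 15.9% and 15.3% of all genes tested and a median of -0.01. After dexamethasone 1 of the 63 passed and fell, near the 1.7% of all genes that passed. That gene was Chrdl1, a secreted BMP antagonist, chosen for naming after its values were seen. It read 26.9 ± 5.68 CPM in Ctr-OPCs and 19.8 ± 3.62 CPM in Dexa-treated OPCs and fell by 0.44 ± 0.08 (adjusted p of 0.0188), in 3 of 3 litters. It stood at 28.0 ± 3.34 CPM in IFN-γ-treated OPCs. Its adjusted p missed the threshold in 7 of 18 alternatives.

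Only 4 of 16 other BMP-type ligands had enough reads to be tested. Bmp3, a ligand known as an antagonist of other BMPs, fell by 3.31 ± 0.36 after IFN-γ, from 1.31 ± 0.479 to 0.139 ± 0.0930 CPM, with an adjusted p of 2.52e-05 and no overlap of the groups, as for 5.44% of all genes tested. Bmp7, the most abundant ligand by reads at 90.5 ± 13.8 CPM in Ctr-OPCs, rose by 0.19 ± 0.06 (adjusted p of 0.043) and missed the threshold in 14 of 18 alternatives. Gdf11 fell by 0.26 ± 0.08 and missed the threshold in 7 of 20. Bmp2 stayed between 0.0503 and 0.422 CPM in every library and was not tested.

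Of 13 secreted antagonists and modulators tested, 3 rose and 3 fell after IFN-γ, beside 15.9% and 15.3% over all genes. Fst, which encodes the activin and BMP antagonist follistatin, rose by 2.13 ± 0.35 from 0.249 ± 0.122 to 1.05 ± 0.368 CPM. Twsg1, a binding partner of chordin, rose by 0.73 ± 0.05 from 42.6 ± 8.33 to 70.4 ± 12.6 CPM. Chrd, which encodes the antagonist chordin, fell by 1.08 ± 0.17 from 5.42 ± 1.70 to 2.56 ± 0.802 CPM. Tll2, a tolloid-like protease, fell by 1.31 ± 0.30, and Sostdc1 rose by 1.25 ± 0.39 from 0.158 ± 0.169 CPM, a call missed in 9 of 19 alternatives. Noggin, Nog, stayed under 1 CPM in every library and did not pass.

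Of 9 other receptors and coreceptors tested, Bambi, a pseudoreceptor that dampens BMP and TGF-β signals, rose by 0.82 ± 0.12 after IFN-γ, from 5.23 ± 1.52 to 9.12 ± 2.08 CPM, and Neo1, a receptor for RGM coreceptors, fell by 0.46 ± 0.05. The remaining 7 did not pass, where 31.2% of all genes tested passed. Of 13 signal-transducing SMADs and regulators, 1 rose and 4 others fell, beside 15.9% and 15.3% of all genes tested. Smad9 fell by 0.77 ± 0.15 from 3.66 ± 1.37 to 2.11 ± 0.473 CPM, Skil, a SMAD corepressor, by 0.61 ± 0.07, Tob2 by 0.34 ± 0.07 and the phosphatase gene Ctdspl by 0.32 ± 0.09, a call missed in 4 of 18 alternatives. Smurf1, a ubiquitin ligase that targets SMADs and receptors, rose by 0.46 ± 0.05.

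Of 6 other known BMP target genes tested, 2 rose and 2 fell after IFN-γ, beside the same shares over all genes of 15.9% and 15.3%. Msx1 rose by 2.64 ± 0.17, from 0.715 ± 0.175 to 4.39 ± 0.965 CPM, and Junb rose by 1.22 ± 0.20. Atoh8 fell by 2.09 ± 0.14, from 4.95 ± 1.64 to 1.14 ± 0.330 CPM, and Klf10 by 0.66 ± 0.05. In the TGF-β and activin branch, 2 of 10 tested rose and 1 fell, beside the same shares. Inhbb fell by 0.57 ± 0.10, Tgif1 rose by 0.64 ± 0.17 (missed in 5 of 18 alternatives) and Smad2 rose by 0.14 ± 0.05. Of the 8 basic helix-loop-helix partners of Id proteins tested, 3 fell and 0 rose, again beside 15.3% lower and 15.9% higher. Hes1 fell by 0.49 ± 0.12, Tcf12 by 0.24 ± 0.05 and Olig2 by 0.16 ± 0.06. The calls of Smad2 and Olig2 lay close to the threshold, with adjusted p-values of 0.0478 and 0.0473, and were missed in 18 of 18 and 14 of 18 alternatives.

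**Figure D5:**
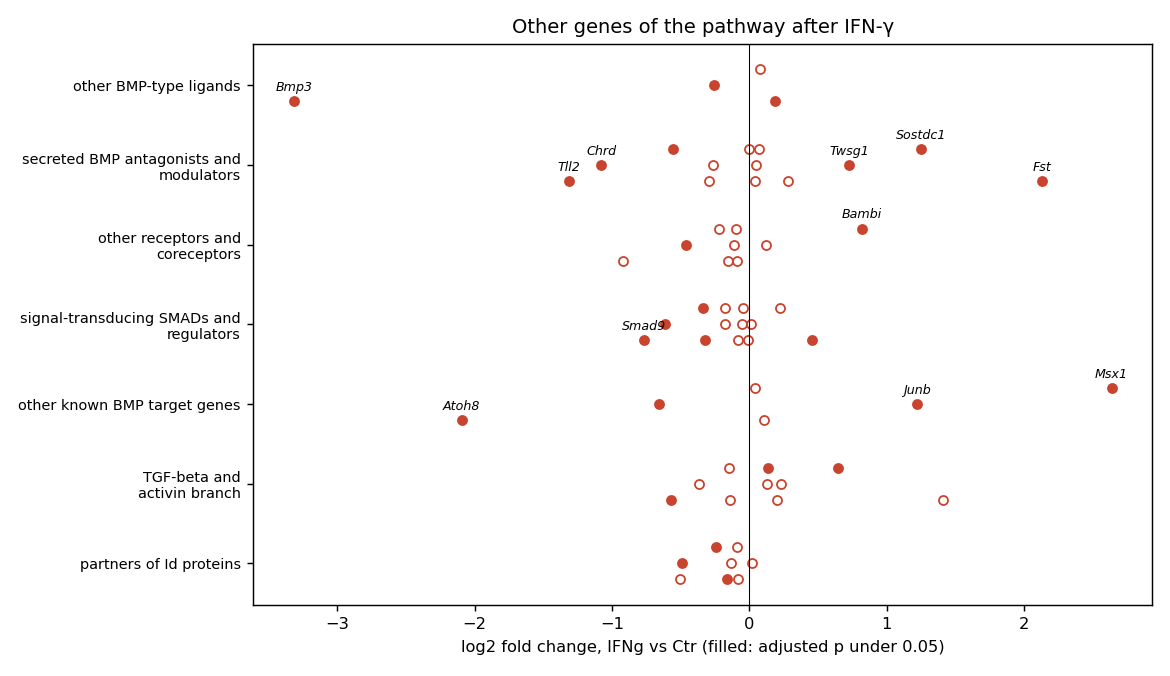
Log2 fold changes after IFN-γ of the 63 tested genes in 7 lists of the pathway beyond the 10 genes, filled where the adjusted p was under 0.05. Each list but the Id partners holds genes on both sides of 0 that passed.

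The genes whose levels followed those of each tested gene most closely over 11 libraries, with the litter mean removed, were found by Pearson's r. These are descriptions over libraries of the same litters and treatments. For Bmp4 they were Tnfrsf22 (r = 0.989), Eng (0.989) and Slc22a21 (0.987). For Bmpr1a they were Akr1b10, Cd1d1 and Parp4 (r of 0.995 to 0.997), with log2 fold changes of 1.00, 0.69 and 2.36 after IFN-γ. For Id1 they were Notch3, Hist2h2ab and Nog (r of 0.960 to 0.972), and for Id3 Llgl1, Acsbg1 and Slc35e4 (0.940 to 0.949). Bmpr1b followed Nxph1, Gm26566 and Tmtc2, Bmpr2 followed Gm45532, Gm43201 and Nfat5, and Smad7 followed Tatdn2, A930017M01Rik and Nol10. Id2 followed Rp9, Mrpl28 and Rps29, and Id4 followed Dab1, Gstk1 and Myo10.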

How the data were processed

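Total RNA was sequenced with a strand-specific kit. Per the submitters' processing notes the tools were STAR, Salmon 0.8.2 and DESeq2. The authors deposited Salmon tables with an estimated count, a TPM value and an effective length per transcript, and DESeq2 tables of their own comparisons, which were not used. Identifiers matched GENCODE vM21 on GRCm38. Here estimated counts were summed per gene and rounded. Genes that reached 10 counts in 4 or more libraries entered the test with edgeR 4.0.16 (R 4.3.3, TMM, robust quasi-likelihood), with the replicate number as a block and Benjamini-Hochberg adjustment over 17919 genes, and called at an adjusted p under 0.05. The study's methods name DESeq2, which was run as an alternative (1.42.0). IFNg vs Ctr and Dexa vs Ctr share the Ctr libraries.

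Different litters were used per replicate number. Deviations from group means correlated at 0.414 to 0.745 between libraries of the same number and at -0.646 to 0.526 between different numbers. The numbers were taken as pairs, although these ranges overlapped. Libraries of litters 3 and 4, whose titles begin alike, correlated with each other at 0.234 to 0.526. They were treated as separate litters, and whether they are related was not tested. Intervals on counts (95%) cover counting error only. The genes and lists were chosen with earlier results of these data known. 1 gene of the list of Id partners and 1 of the oligodendrocyte markers are not reported here and are left out of the counts. All 10 genes are named, with up to 5 called genes per pathway list by size of change, and the 3 genes most like each by r. Gm38125 lies on the strand of Bmpr2 and could share its reads. The genes that overlap Bmp4, Bmpr1a and Id4 lie on the opposite strand. With a strand-specific kit they could share reads only where the strand was lost or not used, which was not tested.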

Additional observations from a re-analysis of the deposited data

Results flagged for a closer look

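Of 25 groups of 4 libraries examined, 1 held a library far from the others: Bmpr2 in IFN-γ litter 4, at 101 CPM, stood apart from the other three IFN-γ libraries at 80.7 to 83.6 CPM, with 0.861 of the group's range between it and its nearest neighbour (critical value 0.829). Chance picks out about 1 in 20 such groups.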

How the results depend on the processing

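Bmpr1a after IFN-γ passed under every alternative run. Without the replicate block, edgeR called 1518 genes for IFNg vs Ctr, 23 for Dexa vs Ctr and 1568 for IFNg vs Dexa, against 5582, 304 and 6083 with it, and 1 of the 10 genes (Bmpr1a) in place of 2 in each comparison with IFN-γ. DESeq2 without the block called 2302, 98 and 2345 genes and 1 of the 10 in IFNg vs Dexa, and with the block 460 in Dexa vs Ctr. For Dexa vs Ctr, 466 genes were called with no filter and 1871 in a fit of these groups alone, which called 1 of the 10 genes, Bmp4. Length offsets left 1 of the 10 in IFNg vs Dexa. Over the genes that the incomplete library lists whole, fewer genes were tested, and 2019, 126 and 2424 were called with it and, in a setting added after seeing the data, 1946, 73 and 2092 without it. Leaving out 1 library at a time gave 98 to 442 genes for Dexa vs Ctr and 1 to 3 of the 10 genes in each comparison with IFN-γ.

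Changes of direction occurred only for log2 fold changes near 0 that did not pass. For dexamethasone, Bmpr1a was at -0.015 with the incomplete library, Bmpr1b at -0.015 with no filter, -0.030 with length offsets and -0.032 in its own groups, and Id1 at 0.070 (edgeR) and 0.068 (DESeq2) without the block. For IFN-γ, Smad7 was at -0.0018 without the block and -0.091 with length offsets, and Id4 at 0.065 (edgeR) and 0.068 (DESeq2) without the block. Leaving out 1 library gave, for dexamethasone, -0.038 to 0.113 for Bmpr1a, -0.099 to 0.082 for Bmpr1b, -0.31 to 0.038 for Smad7 and -0.26 to 0.10 for Id1. For IFN-γ it gave -0.19 to 0.017 for Bmpr1b, -0.081 to 0.25 for Smad7, -0.12 to 0.032 for Id2, -0.36 to 0.057 for Id3 and -0.36 to 0.29 for Id4. The cause was not tested. Low read counts limit Smad6, and Bmp4 after IFN-γ, most.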

Other observations

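The reads of Bmp4 divided between its annotated transcripts in different proportions. Salmon assigned 8, 39.1, 96.3 and 160 reads to the transcript Bmp4-201 in Ctr litters 1 to 4. Bmp4-202 held 0, 108, 200 and 444 reads there, more than Bmp4-201 in litters 2, 3 and 4. In each of the 4 IFN-γ libraries Bmp4-201 held 0 reads, and Bmp4-202 held 1, 29, 3 and 8 reads in litters 1 to 4. In Dexa litters 1 to 4, Bmp4-201 held 0, 8.63, 45.7 and 76.4 reads and Bmp4-202 held 1, 25.4, 43.9 and 195. Both are annotated as protein coding, and these are model estimates with few reads behind them.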
